A study of Saccharomyces cerevisiae with 6 samples.

Results

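The genes for the proteins of the small (40S) ribosomal subunit of budding yeast were followed through an abrupt loss of sucrose. They were taken by name, as RPS followed by a number and, for duplicated genes, the letter A or B. This gave 56 genes of the 5113 in the count table, made up of 24 pairs of an A and a B copy and 8 single-copy genes, which together encode 32 proteins. All 56 passed the low-count filter and were tested among 5011 genes.

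Poly(A)-selected, strand-specific RNA-seq was made from 3 Sucrose and 3 NoSucrose samples of BY4741, a haploid laboratory strain that carries deletions in several marker genes and is labelled as wild type (WT). Sucrose cells grew at 30 °C in synthetic complete medium with 2% sucrose to an OD600 of 0.45 and were harvested from that medium. NoSucrose cells came from the same kind of culture, were collected on a filter and were put into medium with 2% glycerol and 2% ethanol, in which the study's methods hold them for 16 min. Filtering and transfer were applied to NoSucrose cells alone, so handling and carbon source cannot be told apart. Both groups share the strain, the growth temperature and the density at which the cultures were taken. The study's methods describe the samples as biological triplicates, and the labels give a replicate number from 1 to 3 in each group.

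The libraries held 25106494 to 33651822 estimated counts. LEU2, MET17 and URA3, which are deleted in this strain, had 0 counts in all 6 columns of the unfiltered table. Values below are CPM, each gene's count brought to the same library total, with TMM factors of 0.957 to 1.07, and log2 fold changes are NoSucrose over Sucrose. The counts are relative to each library's total, so a lower share of the mRNA and less of that mRNA in each cell cannot be told apart.

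The small subunit reads the mRNA. Proteins of its head, body and platform lie at the entry and exit of the mRNA channel. Its head carries much of the tRNA path, and a single molecule of each protein is built into a subunit. Most of the genes were duplicated in an ancient genome duplication, and their A and B copies encode identical or similar proteins. Transcription depends on Rap1 or Abf1 at the promoter together with Fhl1, Ifh1 and Sfp1, and it is known to respond to nutrients through the TORC1 and protein kinase A pathways.

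After sucrose was removed, the mRNA of every one of the 56 genes was lower, where 48.7% of all tested genes had a log2 fold change below 0. The median log2 fold change was -0.89, beside 0.03 for all tested genes, and it ranged from -1.74 for RPS28B to -0.26 for RPS20. All 56 genes passed an adjusted p of 0.05 in edgeR's quasi-likelihood test with Benjamini-Hochberg adjustment (largest adjusted p 0.00133, for RPS20), where 39.8% of all tested genes passed in the lower and 42.2% in the higher direction. In all 56 the 3 NoSucrose libraries lay below the 3 Sucrose libraries, as they did in 41.1% of tested genes, and the groups were apart in either direction in 84.8%. The decrease was narrow in size, with 50 of the 56 log2 fold changes between -1.2 and -0.7 and standard errors of 0.05 to 0.10.

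**Figure D1:**
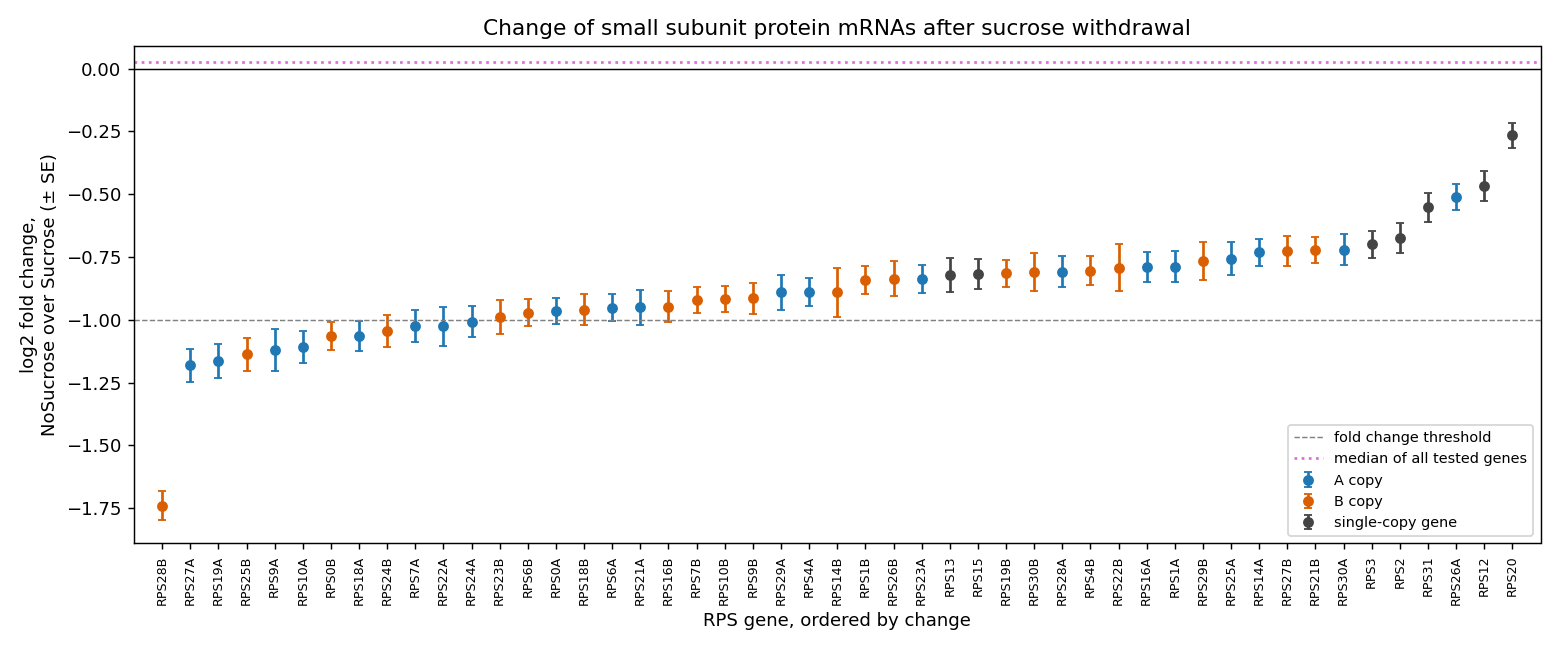
Log2 fold change (NoSucrose over Sucrose, ± SE from edgeR) of 49 of the 56 RPS genes, in order of size, with A copies, B copies and single-copy genes in separate colours. All points lie below 0, RPS28B stands lowest at -1.74, and RPS20, RPS12, RPS26A and RPS31 lie nearest to 0.

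The RPS genes took 8.54, 8.66 and 8.88% of all counts in Sucrose replicates 1, 2 and 3 (mean 8.69 ± 0.17, SD, n = 3). In NoSucrose replicates 1, 2 and 3 they took 4.93, 5.36 and 5.71% (5.33 ± 0.39). The groups did not overlap, and NoSucrose replicate 1 was the lowest. That library was also the lowest NoSucrose library for most of the genes given below.

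A decrease of more than 2-fold at an adjusted p of 0.05 is referred to as called. By this rule 15 of the 56 RPS genes (26.8%) were called lower, beside 6.03% of all tested genes. None was called higher, where 12.7% of all tested genes were called higher and 18.7% in either direction. Of the called genes 12 are named here. Among proteins of the head, they were RPS28B (-1.74) and RPS19A (-1.16), RPS25B (-1.14), RPS10A (-1.11) and RPS18A (-1.06). Rps18 lies near the tRNA in the peptidyl site, Rps10 lies at the entry side of the mRNA channel, and Rps25 is known to be needed by viral internal ribosome entry sites. Among proteins of the body and platform they were RPS27A (-1.18), RPS9A (-1.12), RPS0B (-1.06), RPS24B (-1.04), RPS7A (-1.03), RPS22A (-1.03) and RPS24A (-1.01). Rps9 is a protein of the mRNA entry region whose mutations affect decoding accuracy, and Rps0 sits on the solvent side near the mRNA exit. Rps22 has a counterpart in bacteria, Rps24 in archaea but not in bacteria, and Rps7 only in eukaryotes. Just outside the threshold was RPS23B (-0.99), and just inside it RPS24A.

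By position in the subunit, 6 of 22 genes for head proteins (27.3%) and 9 of 34 for the body and platform (26.5%) were called. Over all tested genes 6.03% were called lower. The medians were -0.85 for the head and -0.89 for the body and platform. Of the 24 A copies 9 were called and of the 24 B copies 6, with medians of -0.95 and -0.92. None of the 8 single-copy genes was called, which is near the share of all tested genes called lower, and their median was -0.69. All 8 passed the adjusted p on its own.

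Several called genes lay close to the threshold. The called count was 6 when libraries were scaled by size alone, where 201 of all tested genes were called lower instead of 302. It was 11 without NoSucrose replicate 1, where 253 of all tested genes were called lower. That left RPS22A, RPS24A, RPS24B and RPS7A short of 2-fold. RPS22A and RPS24A were also short of it without Sucrose replicate 3.

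RPS28 encodes a small protein of the head at the mRNA exit, and its copies parted more than any other RPS pair. RPS28B had 308, 290.0 and 305 CPM in Sucrose replicates 1, 2 and 3 and 84.1, 92.0 and 94.2 CPM in NoSucrose replicates 1, 2 and 3. RPS28A had 859, 928 and 957 CPM in Sucrose and 489, 533 and 545 CPM in NoSucrose. The groups were far apart for RPS28B, whose highest NoSucrose library was far below its lowest Sucrose library, and closer for RPS28A. The log2 fold change was -1.74 ± 0.06 (SE) for RPS28B (adjusted p 1.96e-07, edgeR) and -0.81 ± 0.06 (SE) for RPS28A (adjusted p 8.94e-06). The ratio of A to B in CPM was 2.79, 3.20 and 3.14 in Sucrose and 5.81, 5.79 and 5.78 in NoSucrose. The 3 ratios in NoSucrose were nearly equal and all above those in Sucrose.

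The difference in change between the copies was 0.93 ± 0.05 (SE) on the log2 scale (adjusted p 1.76e-05, limma on log2 A minus log2 B, Benjamini-Hochberg over 61 pairs). Leaving out each library in turn gave 0.87 to 0.97. RPS28A supplied 75.2% ± 1.4 of the pair's mRNA in Sucrose and 85.3% ± 0.03 in NoSucrose (SD, n = 3). RPS28B is known as an autoregulated gene, whose mRNA is degraded through the decapping activator Edc3 when Rps28 protein binds it.

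The coding sequences of both copies are shown because they differ enough for reads to be placed on 1 copy. They hold 204 bases each, are 88.2% identical and share no stretch of 50 bases. RPS28A is at chrXV:648804-649007 on the minus strand and RPS28B at chrXII:673131-673334 on the plus strand (R64, from RefSeq), neither has an intron, and capitals mark the 24 bases at which they differ.
RPS28A: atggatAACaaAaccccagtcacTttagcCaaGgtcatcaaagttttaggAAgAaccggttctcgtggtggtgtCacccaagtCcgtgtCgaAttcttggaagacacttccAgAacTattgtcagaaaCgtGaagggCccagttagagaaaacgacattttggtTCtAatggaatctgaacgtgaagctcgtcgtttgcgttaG
RPS28B: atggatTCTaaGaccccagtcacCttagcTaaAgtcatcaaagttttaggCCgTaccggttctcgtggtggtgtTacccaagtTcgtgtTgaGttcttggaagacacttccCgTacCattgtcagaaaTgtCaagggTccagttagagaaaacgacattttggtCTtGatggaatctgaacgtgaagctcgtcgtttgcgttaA
Of these differences 19 stand at the last base of a codon, and the encoded proteins differ at 1 residue.

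RPS27, whose protein carries a zinc finger and lies on the platform side, was the pair with the next largest difference, in the opposite direction. RPS27A had 387, 407 and 419 CPM in Sucrose and 163, 183 and 188 CPM in NoSucrose. RPS27B had 753, 782 and 824 CPM in Sucrose and 445, 486 and 496 CPM in NoSucrose. The groups did not overlap for either copy, and the A copy, already the lower in Sucrose, fell further. The log2 fold changes were -1.18 and -0.73, and their difference was -0.46 ± 0.02 (SE) (adjusted p 9.03e-06, limma with Benjamini-Hochberg adjustment). The ratio of A to B in CPM was 0.514, 0.520 and 0.508 in Sucrose and 0.367, 0.378 and 0.379 in NoSucrose, with little spread inside either group.

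The copies differ in sequence over most of their length. The spliced coding sequences of RPS27A, at chrXI:158613-159212 on the plus strand, and RPS27B, at chrVIII:147871-148669 on the minus strand (R64, from RefSeq, gene spans with 1 intron each), hold 249 bases, are 84.3% identical and share no stretch of 50 bases. Capitals mark the 39 bases that differ.
RPS27A: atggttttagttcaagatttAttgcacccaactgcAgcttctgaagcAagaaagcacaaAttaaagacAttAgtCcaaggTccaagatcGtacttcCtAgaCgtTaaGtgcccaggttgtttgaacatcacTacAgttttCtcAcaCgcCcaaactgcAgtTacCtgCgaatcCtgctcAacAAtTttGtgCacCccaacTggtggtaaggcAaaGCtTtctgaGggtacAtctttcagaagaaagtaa
RPS27B: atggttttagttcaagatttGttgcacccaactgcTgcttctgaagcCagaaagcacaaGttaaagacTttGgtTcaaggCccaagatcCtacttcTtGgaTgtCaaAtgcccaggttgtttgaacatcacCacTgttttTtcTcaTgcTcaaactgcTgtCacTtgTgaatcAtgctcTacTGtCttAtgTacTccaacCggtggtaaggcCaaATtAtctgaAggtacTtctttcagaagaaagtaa
Of these differences 36 stand at the last base of a codon, and the proteins differ at 1 residue.

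The copies changed by different amounts in 18 of the 24 RPS pairs (adjusted p below 0.05, limma with Benjamini-Hochberg adjustment over all 61 pairs of names that differ in a final A or B). This was 75.0% of RPS pairs, near the 73.8% of all 61 pairs. These are 24 RPS pairs, 33 RPL pairs of the large subunit and 4 others, so the background is almost wholly made of ribosomal protein genes and includes the RPS pairs. The A to B difference did not overlap between the groups in 19 RPS pairs, where 77% of all pairs did not. The direction was divided evenly, with the A copy falling more in 9 pairs and the B copy in 9. The median size of the difference was 0.16 among RPS pairs and 0.15 over all pairs, and 6 RPS pairs exceeded 0.3.

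**Figure D2:**
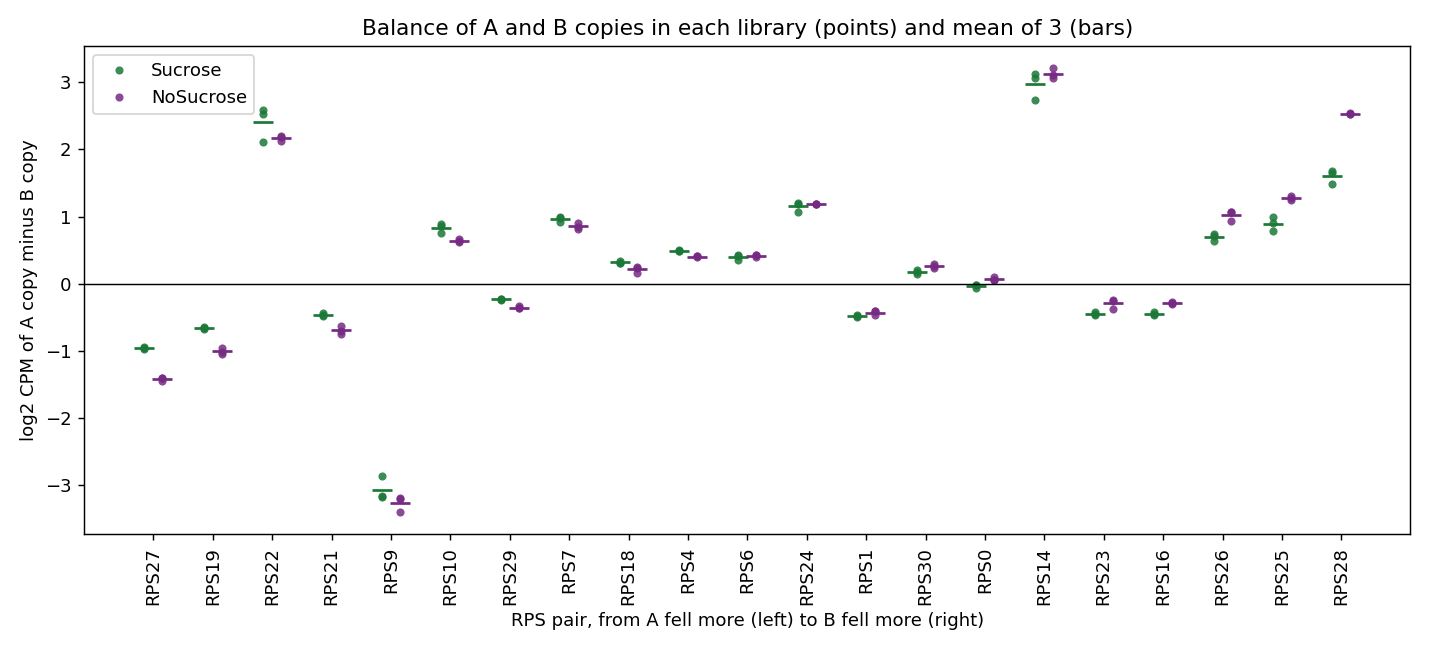
Log2 CPM of the A copy minus that of the B copy for 21 of the 24 RPS pairs, in each library (points) and as the mean of 3 (bars), ordered by the change of the difference. RPS27, at the left, moved down by 0.46 and RPS28, at the right, moved up by 0.93, while RPS6 and RPS24 lie near no movement.

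In RPS25, whose protein lies in the head, the B copy fell more. RPS25A had 1052, 1070.4 and 1155 CPM in Sucrose and 594, 674 and 670.3 CPM in NoSucrose. RPS25B had 608, 573 and 579 CPM in Sucrose and 244, 274 and 283 CPM in NoSucrose. The B copy was the lower in every library, and the difference in change was 0.38 ± 0.05 (SE) (adjusted p 0.000838, limma). RPS26 moved in the same direction. RPS26A had 1777, 1771 and 1785 CPM in Sucrose and 1171, 1311 and 1263 CPM in NoSucrose. RPS26B had 1141, 1062 and 1091 CPM in Sucrose and 559, 622 and 664 CPM in NoSucrose. The groups did not overlap for either copy. The A copy, at -0.51, had one of the smallest decreases of all 56 genes, and the difference was 0.33 ± 0.05 (SE) (adjusted p 0.00112). Rps26 contacts the mRNA at the exit of the channel and can be taken out of mature subunits under stress with the help of its chaperone Tsr2.

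RPS19 went the other way. RPS19A had 1115, 1079 and 1115 CPM in Sucrose and 448, 499 and 531 CPM in NoSucrose. RPS19B had 1733, 1724 and 1749 CPM in Sucrose and 924, 1002 and 1032 CPM in NoSucrose. The groups did not overlap for either, and the lower copy again fell further, with log2 fold changes of -1.16 and -0.82. The difference was -0.35 ± 0.03 (SE) (adjusted p 8.36e-05, limma). Rps19 is needed for the maturation of the small subunit rRNA, and its human counterpart is mutated in Diamond-Blackfan anaemia.

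The copies of some pairs share long stretches of sequence, so that the division of reads between them is uncertain. Among them are RPS6, in which 72.1% of the 50-base stretches of the A copy also occur in the B copy, RPS4 (46.8%) and RPS24 (38.2%). In contrast, RPS25, RPS26, RPS27 and RPS28 share no such stretch.

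Other pairs that passed had smaller differences. The A copy fell more in RPS21 (-0.23), RPS10 (-0.19), RPS29 (-0.12), RPS7 (-0.11), RPS18 (-0.11) and RPS4 (-0.09). The B copy fell more in RPS16 (0.16), RPS23 (0.15), RPS0 (0.10) and RPS30 (0.09). Rps16 and Rps23 both reach the decoding region, from the head and from the body. RPS7 and RPS30 lost their call when some single libraries were left out.

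In 6 pairs no difference was detected by the adjusted p. The estimate with its 95% interval was 0.02 (-0.05 to 0.09) for RPS6, 0.04 (-0.06 to 0.13) for RPS24 and 0.05 (-0.01 to 0.11) for RPS1. These intervals leave room for differences of about the size found in RPS0 or RPS30. Rps6 is phosphorylated under the control of TORC1, and both of its copies fell, with log2 fold changes of -0.95 and -0.97. RPS24A and RPS24B had -1.01 and -1.04, and RPS1A and RPS1B had -0.79 and -0.84.

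In the other undetected pairs the intervals were much wider. They ran over -0.53 to 0.05 for RPS22, -0.44 to 0.04 for RPS9 and -0.11 to 0.40 for RPS14. Each of these pairs has 1 copy at a low level. RPS28B was about as low, at a mean of 301 CPM in Sucrose, and the difference in its pair had an SE of 0.05. RPS14B had 308, 249 and 237 CPM in Sucrose and 139, 149.6 and 139.8 CPM in NoSucrose. RPS22B had 319, 249.7 and 274 CPM in Sucrose and 152, 163 and 171 CPM in NoSucrose. RPS9A had 337, 279 and 282 CPM in Sucrose and 132, 146 and 135 CPM in NoSucrose. Sucrose replicate 1 was the highest library for all 3 genes, and their partner copies were not raised in it. Without that library the RPS22 difference was -0.39 (adjusted p 0.000166, limma), where it was -0.24 with it. The RPS9 difference then shrank from -0.20 to -0.10 and the RPS14 difference from 0.15 to 0.03, and neither passed. RPS14B, RPS22B and RPS9A all have an intron, as do most copies of pairs (35 with an intron and 13 without). RPS14B is known to be repressed when Rps14 protein binds its own unspliced RNA, and the snoRNA gene SNR44 lies within RPS22B.

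**Figure D3:**
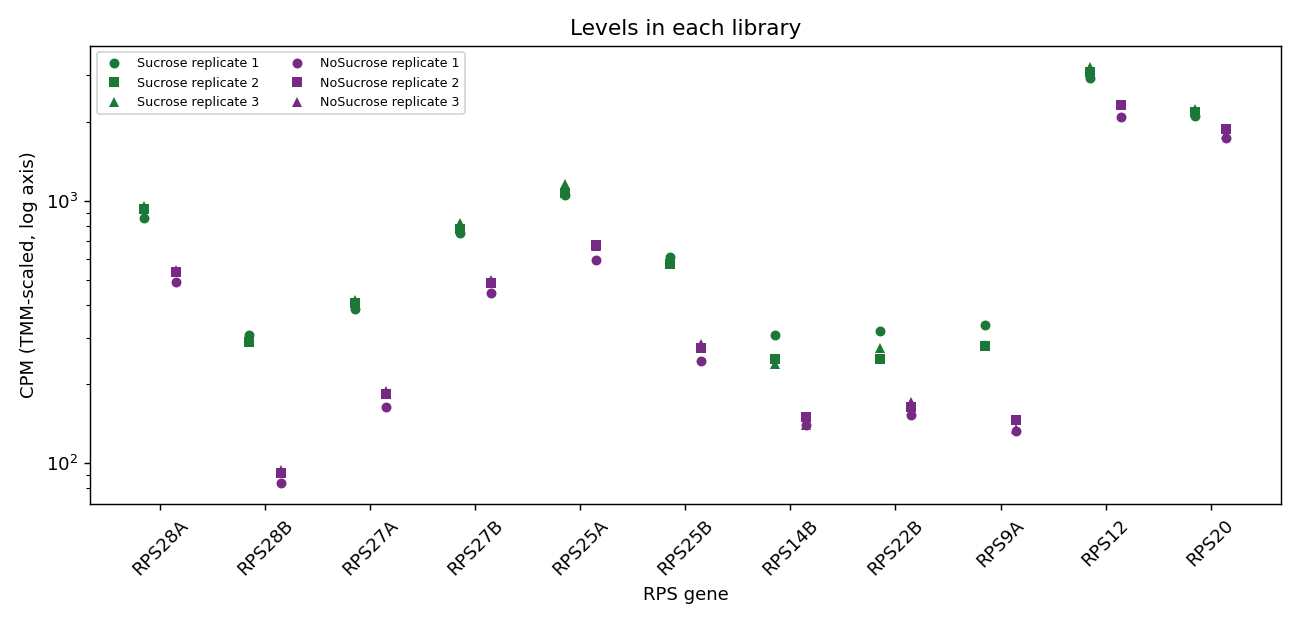
CPM (log axis) of 11 RPS genes in each of the 6 libraries, with Sucrose and NoSucrose in separate colours and a marker shape for each replicate number. RPS28B falls from about 300 to about 90 CPM, RPS14B, RPS22B and RPS9A show Sucrose replicate 1 above the other Sucrose libraries, and RPS20 has the groups closest together.

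The single-copy genes included those that fell least. RPS20 had 2109, 2169 and 2226 CPM in Sucrose replicates 1, 2 and 3 and 1731, 1882 and 1800.0 CPM in NoSucrose replicates 1, 2 and 3. RPS12 had 2944, 3093 and 3236 CPM in Sucrose and 2089, 2310.3 and 2308 CPM in NoSucrose. RPS31 had 4366, 4474 and 4629 CPM in Sucrose and 2855, 3124 and 3202 CPM in NoSucrose. In each the groups did not overlap, but for RPS20 the highest NoSucrose and the lowest Sucrose library were close. Their log2 fold changes were -0.26 ± 0.05 (SE) for RPS20, -0.47 ± 0.06 (SE) for RPS12 and -0.55 ± 0.06 (SE) for RPS31 (adjusted p 0.00133, 0.000151 and 4.14e-05, edgeR). Rps20 and Rps12 are proteins of the head and its beak, and RPS31 encodes Rps31 fused to ubiquitin, which is split off after translation.

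RPS2 (-0.67) and RPS3 (-0.70), whose proteins line the entry of the mRNA channel, came next among the single-copy genes. RPS2 had 4258, 4322 and 4433 CPM in Sucrose and 2514, 2769 and 2869 CPM in NoSucrose. RPS3 had 2822, 2828 and 2944 CPM in Sucrose and 1646, 1813 and 1831 CPM in NoSucrose. RPS15 (-0.82) encodes a head protein near the decoding site and RPS13 (-0.82) a platform protein that bridges to the large subunit. RPS13 had 2072, 1829 and 1929 CPM in Sucrose and 1017, 1130.2 and 1149 CPM in NoSucrose, again with Sucrose replicate 1 highest. All 4 genes had groups that did not overlap, as did every RPS gene and 41.1% of all tested genes in the lower direction.

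When the copies of a pair were summed per protein, the single-copy genes held 6 of the 8 smallest decreases among the 32 proteins. The other places were held by RPS26, at -0.63, and RPS14, at -0.75. The median log2 ratio was -0.69 for the 8 single-copy proteins and -0.93 for the 24 with copies summed. The ranges overlapped (-0.82 to -0.26 and -1.04 to -0.63). No test was made of this split, since it is a description over genes.

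Levels were compared per kilobase of coding sequence, with the mean and SD of 3 libraries. Among single genes in Sucrose they ran from 504 ± 55.1 CPM per kb for RPS9A to 9781 ± 287 for RPS31, a 19.4-fold range. The 4 highest were all single-copy genes, RPS12 (7155 ± 338) and RPS20 (5923 ± 160.4) among them. The lowest after RPS9A were RPS14B (635 ± 90.2) and RPS22B (715 ± 89.6).

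The levels were far closer once copies were summed. The 32 proteins spanned 2.47-fold in Sucrose, with a coefficient of variation of 21.5%, against 46.2% for the 56 single genes. In NoSucrose the proteins spanned 3.11-fold, with a coefficient of variation of 29.5%. The wider spread went with the small decreases of genes that were already high. RPS31 had, in CPM per kb, 9781 ± 287 in Sucrose and 6667 ± 396 in NoSucrose, and RPS12 had 7155 ± 338 in Sucrose and 5176 ± 294 in NoSucrose. At the other end, RPS3 was the lowest of the 32 proteins in Sucrose. It had, in CPM per kb, 3962 ± 95.4 in Sucrose and 2439 ± 141 in NoSucrose. The lowest in NoSucrose was RPS7 with its copies summed, at 4255 ± 103 CPM per kb in Sucrose and 2142 ± 139 in NoSucrose. Over the 56 genes the log2 fold change was less negative at a higher level per kilobase in Sucrose (Spearman 0.54, Pearson 0.50), and its correlation with coding length was small (Spearman -0.02). These correlations run across genes in the same libraries and carry no test.

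**Figure D4:**
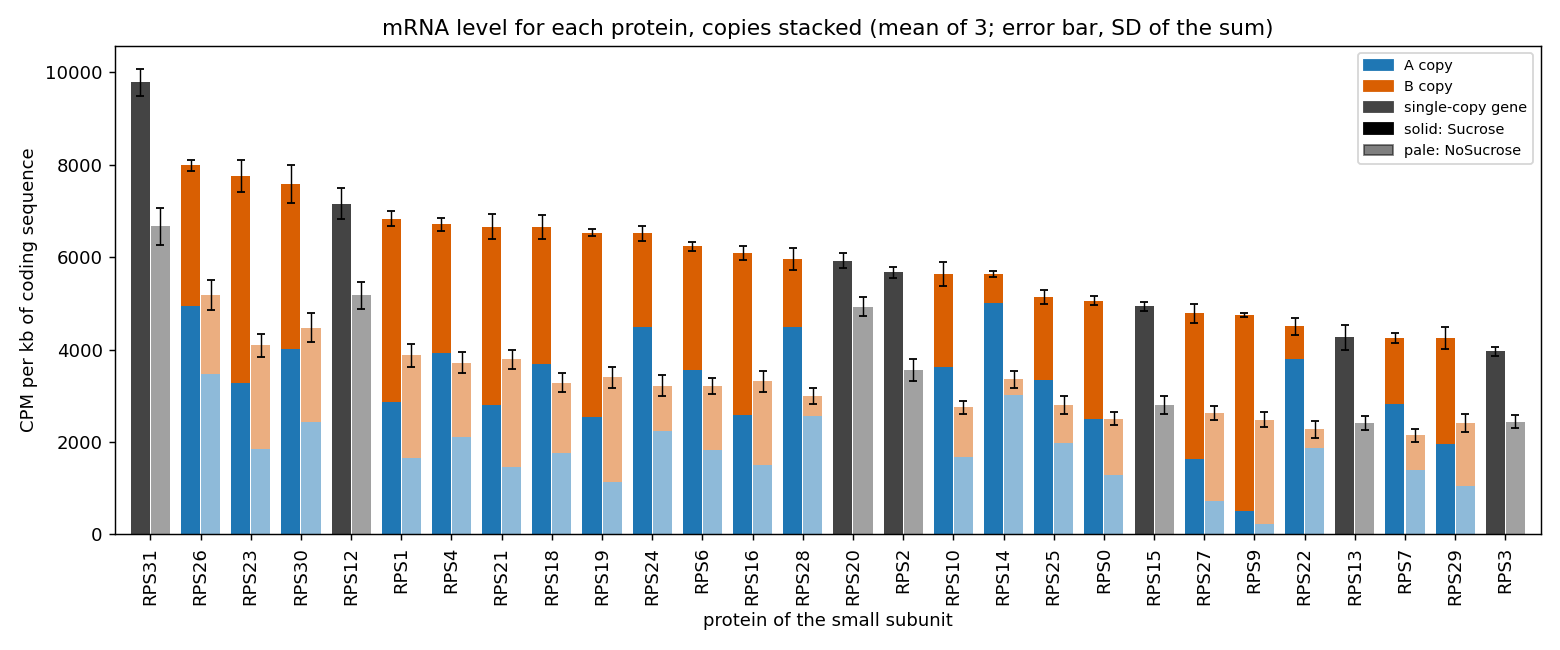
Mean CPM per kb of coding sequence for 28 of the 32 small subunit proteins in Sucrose (solid) and NoSucrose (pale), with A and B copies stacked (error bars, SD of the summed level, n = 3). RPS31 is the highest in both conditions.

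Within pairs the higher copy was mostly the same in both conditions. The copies changed by different amounts in 18 of the 24 pairs (75.0%), near the 73.8% of all 61 pairs. The A copy was the higher per kilobase in 15 pairs in Sucrose and the B copy in 9, and the same copy was the higher in NoSucrose in 23 of 24 pairs. The exception was RPS0, whose copies were nearly equal in Sucrose. The proteins of the copies are identical in 9 pairs and differ at 1 residue in 7. The copies lay within 1.5-fold of each other in 13 pairs and more than 2-fold apart in 5. The most unequal were RPS9 (B higher by 8.45-fold), RPS14 (A higher by 7.92-fold), RPS22 (A by 5.31-fold), RPS28 (A by 3.04-fold) and RPS24 (A by 2.22-fold).

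Introns are rare in yeast but common in this family, in which 36 of the 56 genes have one. Their median log2 fold change was -0.95, against -0.78 for the 20 genes without. Among copies of pairs alone the medians were -0.95 for 35 genes with an intron and -0.84 for 13 without. The single-copy genes without an intron, 7 of 8, had a median of -0.67. The strongest and the weakest decreases, RPS28B and RPS20, were both in genes without an intron.

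The 500 bases before each start codon were searched on both strands for the letters ACCCNNACA, a core of the Rap1 site, and for the Abf1 site, TCA and ACG with any 6 bases between them. The Rap1 letters occurred in 18 of 56 RPS promoters (32.1%) and in 5.46% of all 6006 promoters of the same length. At least 2 matches stood in 4 RPS promoters, among them those of RPS7A, RPS16A and RPS16B, against 0.283% of all promoters. The Abf1 letters occurred in 12 RPS promoters (21.4%) and in 22.7% of all. The matches of the RPS16 copies are shown because they are paired, in capitals within 29 bases of R64 sequence from RefSeq, read on the strand of the gene.
RPS16A, chrXIII:551520-551548, plus strand: aaactataaaTGTATGGGTgcgtaatgta
RPS16A, chrXIII:551611-551639, plus strand: acatattggcACCCATACAttataaaatc
RPS16B, chrIV:308196-308224, minus strand: taacaggaaaTGTATGGGTcacatattaa
RPS16B, chrIV:308133-308161, minus strand: cagaaaaaacACCCATACAtgttgaaaaa
Both RPS16 copies hold the match once in each direction. The log2 fold changes were -0.79 for RPS16A and -0.95 for RPS16B.

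Neither RPS28 promoter held the Rap1 letters, and each held a single match to the Abf1 letters at a similar distance, 164 to 153 bases before the start codon in RPS28A and 181 to 170 in RPS28B.
RPS28A, chrXV:649151-649179, minus strand: gacgcggcCGTCTAGAGTGAccacgcact
RPS28B, chrXII:672942-672970, plus strand: acttatttCGTACAAAATGAtcacgcaac
The match lies in the same direction in both copies, while the log2 fold changes, given above, were -0.81 for RPS28A and -1.74 for RPS28B. Genes with the Rap1 letters had a median log2 fold change of -0.93 and those without -0.87. A match is a description of the sequence, and binding was not measured here.

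The 76 genes for proteins of the large subunit, named RPL, are the most similar family. Their median was -0.83. By the adjusted p 75 were lower and 1, RPL15B (0.21), was higher, where 39.8% of all tested genes were lower and 42.2% higher. Of the 76 genes, 12 (15.8%) were called lower, beside 6.03% of all tested genes. The copies differed in 24 of 33 RPL pairs (72.7%). The ratio of RPS to RPL counts was 0.759, 0.765 and 0.767 in Sucrose and 0.711, 0.713 and 0.719 in NoSucrose. The ratio was lower in every NoSucrose library, and no test of it was made.

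Among 13 regulators of ribosomal protein genes, 3 were called, beside 18.7% of all tested genes in either direction. CRF1, which displaces the coactivator Ifh1 from Fhl1 when TORC1 is inhibited in some strains, had 4.05, 3.55 and 3.75 CPM in Sucrose and 19.4, 17.7 and 18.0 CPM in NoSucrose, a log2 fold change of 2.28 ± 0.09 (SE) (adjusted p 3.98e-07, edgeR). IFH1 had 195, 194 and 193 CPM in Sucrose and 70.3, 70.7 and 68.4 CPM in NoSucrose, a change of -1.48 ± 0.04 (SE) (adjusted p 8.37e-08). The groups were far apart for both, one rising and the other falling. TOD6, a repressor of ribosome biogenesis genes, was called lower (-1.36), while its paralog DOT6 (0.92) and the repressor STB3 (0.84) rose by less than 2-fold. With library size alone DOT6 was past 2-fold (1.03).

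The remaining regulators changed less. SCH9 (-0.78), which encodes a TORC1-controlled kinase, RAP1 (-0.62), ABF1 (-0.25) and FHL1 (-0.17) fell, and TOR1 (0.29) and SFP1 (0.18) rose, all at an adjusted p below 0.05 in edgeR. With library size alone these decreases were smaller, at -0.05 for FHL1 and -0.13 for ABF1. The rises of TOR1 (0.41) and SFP1 (0.30) were then larger. HMO1 (-0.01) and TOR2 (0.00) did not pass, and their sign depended on the scaling.

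**Figure D5:**
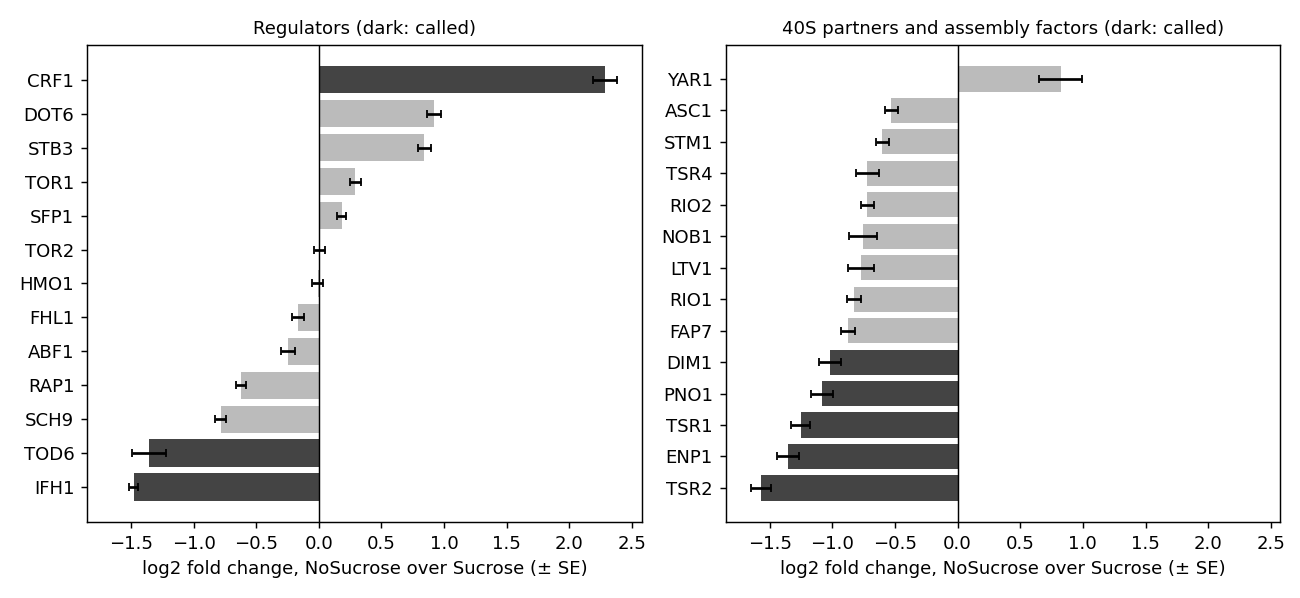
Log2 fold change (NoSucrose over Sucrose, ± SE from edgeR) of 13 regulators of ribosomal protein genes and of 14 partners and assembly factors of the 40S subunit, with called genes in dark bars. CRF1 stands apart at 2.28, IFH1 lies at -1.48, and YAR1 is the partner above 0.

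Of 14 partners and assembly factors of the small subunit, 13 fell and 5 of these were called lower, beside 39.8% and 6.03% of all tested genes. TSR2, the chaperone of Rps26, fell most, with 72.2, 76.0 and 80.7 CPM in Sucrose and 23.5, 24.7 and 28.7 CPM in NoSucrose and a log2 fold change of -1.57 ± 0.08 (SE) (adjusted p 1.03e-06, edgeR). ENP1 (-1.35), TSR1 (-1.25), PNO1 (-1.08) and the rRNA dimethylase gene DIM1 (-1.02) act in the assembly of the subunit precursor. PNO1 and DIM1 were under 2-fold with scaling by library size alone. ASC1, which encodes a scaffold protein on the mature head, fell (-0.53), as did STM1 (-0.60), which encodes a ribosome-bound protein.

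YAR1, which encodes the chaperone of Rps3, rose. It had 116, 112 and 107 CPM in Sucrose and 227, 225 and 139.8 CPM in NoSucrose, with NoSucrose replicate 3 well below the other NoSucrose libraries but above all Sucrose libraries. The log2 fold change was 0.82 ± 0.17 (SE) (adjusted p 0.00244, edgeR). Its client gene RPS3 fell, as given above. The median of the 14 genes was -0.80.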

How the data were processed

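RNA-seq of 3 Sucrose and 3 NoSucrose samples was analysed, with groups and replicate numbers from the sample labels. Per the study's methods, reads were quantified by Salmon on the R64 transcriptome, and the authors deposited expected counts (estimated counts) for 5113 genes and for the 5028 that passed a filter. The filtered values were not normalized. The gene names are displaced in that table, and 0 RPS rows carried their own name, so a row took its name from the unfiltered table, by its set of 6 values without regard to order. All 5028 rows matched exactly 1 gene. Column headers of the filtered table gave the samples, and 1999 of 1999 genes in a shortened supplementary table were identical under them. The labels name synthetic complete medium, and the methods name it without tryptophan.

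Counts were rounded and tested, after filterByExpr at min.count 15 and min.total.count 20, with edgeR 4.0.16 in R 4.3.3 (TMM, glmQLFit, glmQLFTest, condition only, all 6 libraries). A gene was called at a Benjamini-Hochberg adjusted p below 0.05 and a fold change above 2. The biological coefficient of variation was 0.0708. Libraries held 25106494 to 33651822 counts, RPS genes 2289 to 145002 counts in a library, and near an unadjusted p of 0.05 the median absolute log2 fold change was 0.13. Pairs were tested with limma 3.58.1 on log2 CPM of A minus B (prior count 2), with a 95% interval. Sequences and introns came from R64 of RefSeq, where all 56 genes matched by symbol. The fits were tested on simulated data.

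Members, lists and tests were chosen with earlier results of these data known. Named genes were all called members, the extremes of change, level and pair difference, all single-copy genes, and from other lists the called genes and extremes. Some members enter the fits and counts but are not reported here by name or drawn. RPL15B and the gene just outside the threshold were named after their values were seen. Alternatives were other scalings (DESeq2 1.42.0 size factors, upper quartile, library size), filters, thresholds, prior counts, a replicate block and each library left out.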

Additional observations from a re-analysis of the deposited data

How the results depend on the processing

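The RPS genes kept their direction and their adjusted p below 0.05 in all 56 cases under DESeq2, upper-quartile scaling, library size alone, no low-count filter, a replicate block and each library left out. The fold threshold decided the called count. It was 15 with TMM, 16 with DESeq2, 14 with upper-quartile scaling, 6 with library size alone and 52 at a fold change of 1.5. Of all tested genes 302 were called lower with TMM, 320 with DESeq2 and 283 with upper-quartile scaling. At a fold change of 1.5, 1989 of all tested genes were called in either direction instead of 937. The 52 RPS genes were all lower, so these counts are not alike. With library size alone the median of all genes was 0.14 instead of 0.03, the RPS median was -0.77 instead of -0.89, and 733 genes were called higher and 201 lower, against 635 and 302. Leaving out each library gave 853 to 1020 called genes in either direction, with 253 to 352 called lower. It gave 11 to 18 called RPS genes and RPS medians of -0.91 to -0.84. There were 41 to 46 differing pairs and 16 to 19 differing RPS pairs. Mean RPS shares were 8.60 to 8.77% in Sucrose and 5.14 to 5.53% in NoSucrose.

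The difference within RPS24 (-0.0075 to 0.061 with each library left out) and that within RPS6 (-0.0032 to 0.038) changed sign without Sucrose replicate 1, and neither passed the threshold with or without it. The cause was not tested. The difference within RPS22 passed without Sucrose replicate 1, that within RPS1 without NoSucrose replicate 1 (0.07), and that within RPS9 with the replicate block (-0.20, adjusted p 0.0402, limma). Without the block the RPS9 difference ran from -0.25 to -0.10 with each library left out and did not pass. RPS30 and RPS7 did not pass without Sucrose replicate 2, Sucrose replicate 3 or NoSucrose replicate 1, and RPS7 also without NoSucrose replicate 2. Same-numbered samples did not deviate together (correlations of -0.14, -0.00 and 0.04), so the numbers were not taken to pair the samples. With the replicate block 933 genes, 15 RPS genes, 45 pairs and 19 RPS pairs passed, and no sample pairing was drawn from it. The RPS share of the unfiltered table was not run, because its columns could not be assigned to samples. For single genes, the median absolute log2 fold change near an unadjusted p of 0.05 was 0.13, and the pair test reached smaller differences.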

Other observations

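In Sucrose replicate 1 the lower copies RPS14B, RPS22B and RPS9A and the single-copy gene RPS13 were the highest of all 6 libraries, at 308, 319, 337 and 2072 CPM. They were not the only ones. The lower copies RPS24B, RPS25B, RPS26B and RPS28B were also highest in that library, at 846, 608, 1141 and 308 CPM. Other lower copies, such as RPS27A (387 CPM), had their lowest Sucrose value in it. The RPS share of that library, 8.54%, was the lowest of the Sucrose libraries. HIS3, which is partly deleted in BY4741, had 2534 to 3414 counts in Sucrose and 1164 to 1557 in NoSucrose.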
